A study of Mus musculus with 11 samples.

Results

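Gip, Ghrl, Cck, Sct and Sst encode peptide hormones of the upper gut, and all 5 were found by symbol among the 24294 gene symbols of the table. Gip encodes the incretin of K cells, Ghrl encodes ghrelin of X cells, Cck encodes cholecystokinin of I cells, Sct encodes secretin of S cells, and Sst encodes somatostatin of D cells. Mouse small intestine RNA was sequenced as 4 HLJDD, 4 HFD and 3 ND libraries (11 in all). HLJDD has the initials of Huang Lian Jiedu Decoction, a herbal preparation that the series title sets in obese mice and links to the release of gastric inhibitory polypeptide, the Gip product. The labels give no genotype, strain, sex, age, dose, diet composition or stretch of intestine, do not spell out ND and HFD, and do not state what the HLJDD mice ate. They also do not say that each library is a separate animal, so p-values measure the spread between libraries, which may be technical.

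Enteroendocrine cells are scattered single cells of the gut lining that sense nutrients in the lumen and release peptide hormones from dense granules. K cells release the Gip product after fat and sugar, and it raises insulin secretion and acts on fat tissue. Ghrelin, mostly a stomach hormone, stimulates feeding, cholecystokinin empties the gallbladder and stimulates pancreatic enzyme release, secretin drives bicarbonate secretion, and somatostatin inhibits its neighbours. K, I and S cells are most frequent in the duodenum and become rarer towards the ileum. In bulk RNA, fewer cells of a type and less RNA per cell cannot be told apart.

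The start regions of the genes are shown because Gip and Ghrl changed together against ND while Sct did not pass the test in any comparison. Each window runs from 250 bases before to 50 after a RefSeq start site (assembly GRCm38.p6, to which mm10 corresponds), 5′ to 3′ on the gene's strand. They lie at chr11:96024295-96024594 (plus strand) for Gip, chr6:113719862-113720161 (minus) for Ghrl, where the first of 4 RefSeq windows is shown, and chr7:141279084-141279383 (minus) for Sct. Capitals mark matches to 4 motifs, searched on either strand without overlap between them. The motif of the GATA transcription factors was searched as AGATAA. The E box, the class of site that Neurod1 binds, was searched as CAGCTG. The cyclic AMP response element was searched as TGACGTCA, and the core promoter box named for its letters as TATAAA.
Gip: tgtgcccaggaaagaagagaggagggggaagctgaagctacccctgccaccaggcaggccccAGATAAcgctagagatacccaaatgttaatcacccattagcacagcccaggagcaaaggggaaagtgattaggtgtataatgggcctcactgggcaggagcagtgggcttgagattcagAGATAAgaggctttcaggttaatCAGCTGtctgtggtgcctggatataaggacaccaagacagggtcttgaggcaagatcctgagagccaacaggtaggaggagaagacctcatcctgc
Ghrl: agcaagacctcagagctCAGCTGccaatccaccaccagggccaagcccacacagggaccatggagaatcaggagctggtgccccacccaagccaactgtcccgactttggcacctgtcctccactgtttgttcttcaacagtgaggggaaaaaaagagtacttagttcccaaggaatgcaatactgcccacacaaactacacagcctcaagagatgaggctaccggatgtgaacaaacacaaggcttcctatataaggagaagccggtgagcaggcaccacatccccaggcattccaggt
Sct: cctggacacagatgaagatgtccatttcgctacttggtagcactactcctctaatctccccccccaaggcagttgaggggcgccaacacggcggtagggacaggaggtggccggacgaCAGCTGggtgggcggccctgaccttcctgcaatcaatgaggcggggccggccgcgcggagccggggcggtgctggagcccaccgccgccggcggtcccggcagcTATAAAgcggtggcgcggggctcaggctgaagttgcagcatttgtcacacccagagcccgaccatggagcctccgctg
The Gip window held AGATAA 2 times, at -188 and -69 from the start site, and CAGCTG at -46. AGATAA occurred in 11.2% of all 32851 promoter windows and at least 2 times in 1.14%. The Ghrl window held CAGCTG at -233, and the Sct window held CAGCTG at -132 and TATAAA at -28. CAGCTG occurred in 16.3% of all windows and TATAAA in 13.6%. Of the windows not printed, that of Cck held AGATAA at -189 and that of Sst held TGACGTCA at -48, a motif found in 1.79% of windows. The Sct window had the highest GC content of the 5, 66.67%, against 52.67% for Gip, 53.33% for Ghrl, 59.33% for Cck, 50.33% for Sst and a median of 52.67% over all windows. These matches are descriptions of letters and not of bound sites.

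The library totals, worked out from the deposited FPKM values (fragments per length of gene, scaled to the library total), ran from 30101888 to 37943272 reads. Transcripts of the mitochondrial genome took 40.7% of reads in HLJDD replicate 2, 32.4% in HFD replicate 1 and 10.4% to 19.3% in the other 9 libraries. The ND libraries also differed in Fabp6, the bile acid carrier of ileal enterocytes, which stood at 0.21 to 2.27 FPKM in HLJDD, 1.26 to 4.31 FPKM in HFD, and 9821, 6702 and 397 FPKM in ND replicates 1, 2 and 3. On the log2 scale, the median over the 10764 tested genes stood at -0.205 in the HFD against ND contrast, at 0.061 in the HLJDD against HFD contrast and at -0.127 in the HLJDD against ND contrast. After median-ratio scaling, which divides each library by its median ratio to a common profile, these medians were -0.0002, 0.0033 and 0.019. As deposited, 545 genes were higher and 1241 lower in HFD than in ND, and after this scaling 1248 were higher and 1228 lower.

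Gip transcripts were about 3 times as abundant in HFD as in ND intestine and the HLJDD mean lay between those of HFD and ND. The gene (chr11:96024532-96030831, plus strand) had 72.9, 50.5, 88.8 and 63.5 FPKM in HLJDD replicates 1 to 4, 81.8, 109.1, 103.9 and 108.2 FPKM in HFD replicates 1 to 4, and 18.9, 30.8 and 48.3 FPKM in ND replicates 1 to 3. The highest ND library lay just below the lowest HLJDD library, and the lowest HFD library lay below the highest HLJDD library, so HLJDD overlapped HFD but not ND. Means were 68.9 ± 16.1 FPKM in HLJDD, 100.7 ± 12.8 FPKM in HFD and 32.7 ± 14.8 FPKM in ND (SD, n = 4, 4 and 3). These values rested on 501 to 3040 reads per library.

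**Figure D1:**
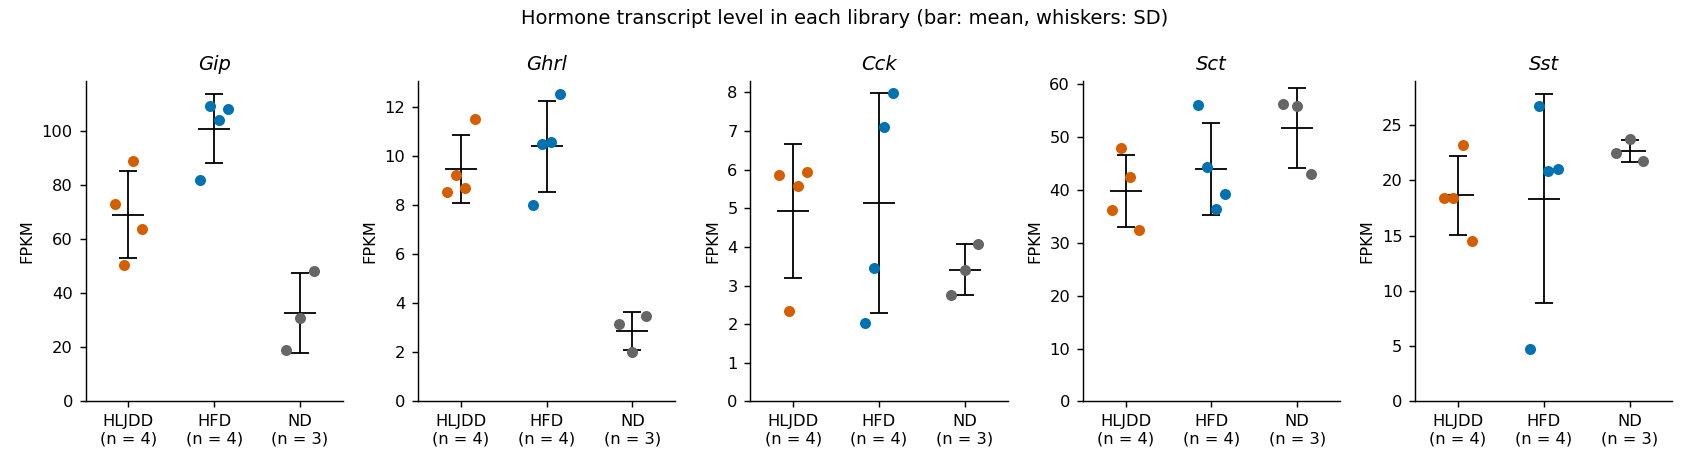
Level of the 5 hormone genes in FPKM (linear axes, 1 panel per gene) in each HLJDD, HFD and ND library. Points are libraries, horizontal bars are group means and whiskers are SD. Every HLJDD and HFD point lies above every ND point for Gip and Ghrl, while the groups overlap for Cck, Sct and Sst.

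Gip rose in HFD against ND by 1.68 on the scale of log2(FPKM + 1) (SE 0.27, 95% interval 1.09 to 2.28, limma adjusted p = 0.00218), with a ratio of mean FPKM of 3.08. Exact permutation of the library labels (two-sided, on group means) gave p = 0.02857, the smallest that 35 arrangements allow. Gip also rose in HLJDD against ND, by 1.12 (SE 0.27, 95% interval 0.53 to 1.72, limma adjusted p = 0.021), with a ratio of means of 2.11 and an exact permutation p of 0.05714. That call was lost without HLJDD replicate 1 (limma adjusted p = 0.0541), ND replicate 1 (0.103) or ND replicate 2 (0.0791), and with no filter on low genes (0.0574). The HFD against ND call was kept without each of the 7 libraries in turn. Both contrasts use the same 3 ND libraries.

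Against HFD, Gip in HLJDD was lower by 0.56 on the log2 scale, with a 95% interval of -1.11 to -0.01 and an unadjusted p of 0.0464. The limma p adjusted over all genes was 0.999, so this difference did not pass the test. The exact permutation p over the 70 arrangements of 4 against 4 libraries was 0.05714. The median-ratio factors were 0.764 for HLJDD replicate 2 and 0.752 for HFD replicate 1, the 2 libraries rich in mitochondrial transcripts, and 0.973 to 1.17 for the other 9. After this scaling Gip stood at 67.8, 66.1, 77.1 and 64.3 in HLJDD replicates 1 to 4 and at 108.8, 104.4, 103.8 and 111.2 in HFD replicates 1 to 4, in scaled FPKM. On that scale every HLJDD library lay below every HFD library, and the spread of Gip shrank within HLJDD and within HFD. The scaled means were 68.8 ± 5.71 in HLJDD and 107.0 ± 3.55 in HFD (SD, n = 4 each), a ratio of 0.643, and the exact permutation p was 0.02857, the smallest possible. This permutation test on scaled values was added after the data were seen, and limma on the scaled values gave an adjusted p of 0.873. The same scaling widened Sct, from an SD of 6.82 to 14.2 in HLJDD and from 8.67 to 17.6 in HFD. The SD of Cck fell in both groups, while those of Ghrl and Sst rose in HLJDD and fell in HFD. Over all 10764 genes limma called 0 in HLJDD against HFD (186 at an unadjusted p under 0.05), and limma-voom on the recovered reads also called 0. Background calls were therefore 0% in this contrast, and 0 of the 5 hormone genes passed. The share of all genes whose libraries separate without overlap is not given here, for this contrast or those with ND.

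**Figure D2:**
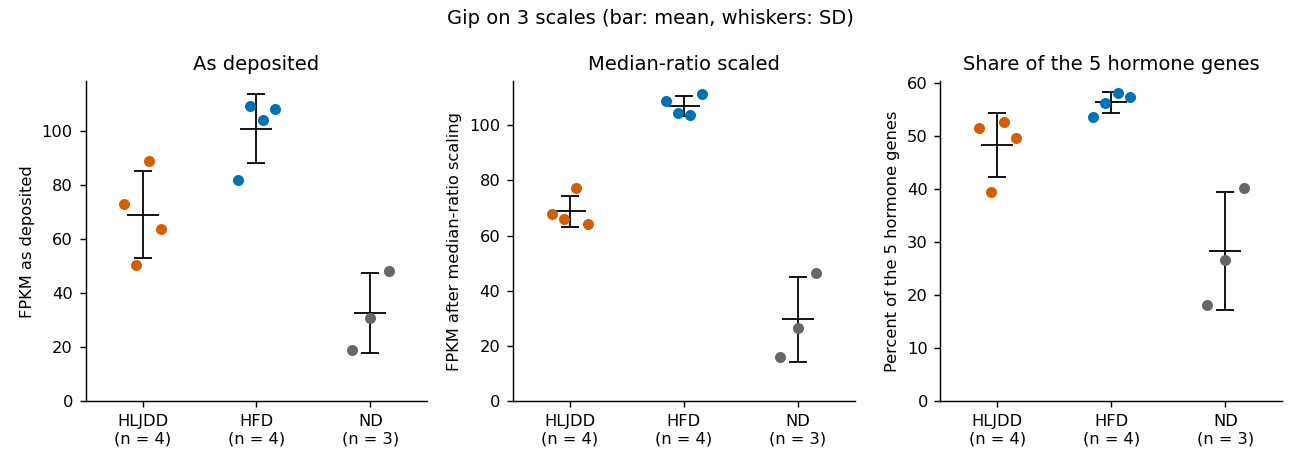
Gip in each library on 3 scales: FPKM as deposited, FPKM after median-ratio scaling, and percent of the summed FPKM of the 5 hormone genes (linear axes). Points are libraries, bars are means and whiskers are SD. The HLJDD points overlap the HFD points as deposited, and lie below all of them on the other 2 scales.

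Ghrl transcripts were more than 3 times as abundant in HLJDD and HFD as in ND intestine. The ghrelin gene (chr6:113716119-113719911, minus strand) had 8.53, 9.22, 8.71 and 11.5 FPKM in HLJDD replicates 1 to 4, 8.0, 10.5, 10.6 and 12.5 FPKM in HFD replicates 1 to 4, and 3.14, 2.01 and 3.5 FPKM in ND replicates 1 to 3. All HLJDD and HFD libraries stood above all ND libraries, and HLJDD and HFD overlapped. Means were 9.50 ± 1.38, 10.4 ± 1.86 and 2.89 ± 0.776 FPKM in HLJDD, HFD and ND (SD, n = 4, 4 and 3).

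Ghrl rose in HFD against ND by 1.56 on the log2 scale (SE 0.18, 95% interval 1.17 to 1.95, limma adjusted p = 0.00037), and in HLJDD against ND by 1.45 (SE 0.18, limma adjusted p = 0.000616). Both exact permutation tests gave p = 0.02857, and both limma calls were kept without each library in turn. The ratios of mean FPKM were 3.61 and 3.29. Between HLJDD and HFD the difference was -0.11 with a 95% interval of -0.47 to 0.25 (limma adjusted p = 0.999). The ND values rested on 42 to 74 reads, and for the lowest, ND replicate 2 with 42 reads, the 95% Poisson interval was 1.45 to 2.72 FPKM, which covers counting error only. Ghrl is overlapped by 2 gene models on the opposite strand, and the strand setting of the counting is not given in the sources used here, so reads from them cannot be told apart from Ghrl reads.

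In HFD against ND, 2 of the 5 hormone genes were called, both higher, against a background of 16.6% of all genes called in either direction and 5.06% called higher. In HLJDD against ND the same 2 genes were called higher, against 11.9% in either direction and 4.1% higher. The background of genes called lower was 11.5% in HFD against ND and 7.79% in HLJDD against ND. On median-ratio scaled values the background was 11.6% higher and 11.4% lower in HFD against ND, and 8.62% higher and 9.18% lower in HLJDD against ND. With so few members these shares describe the 5 genes and carry no test.

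**Figure D3:**
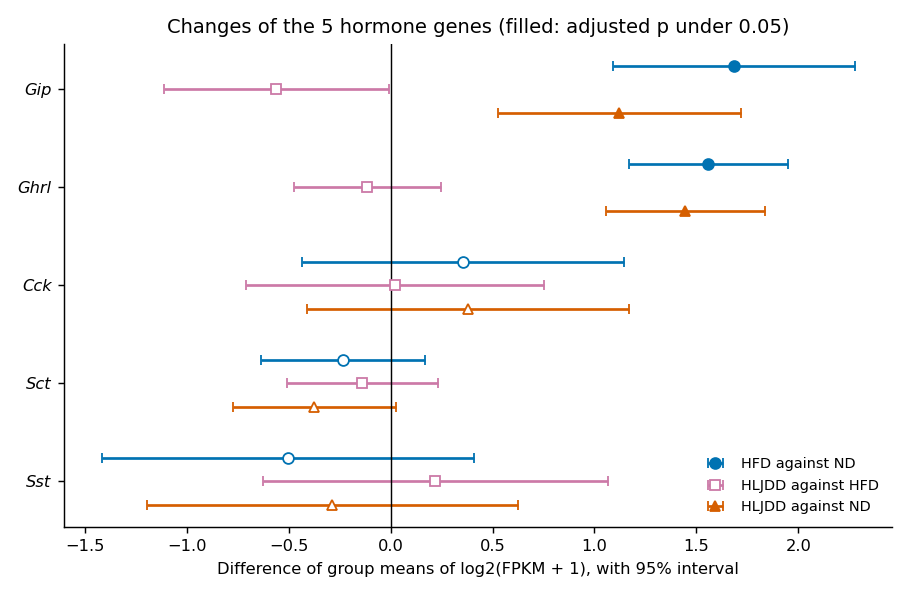
Difference of group means of log2(FPKM + 1) for the 5 hormone genes in 3 comparisons, with 95% intervals from limma. Filled symbols have an adjusted p under 0.05. Gip and Ghrl are filled in HFD against ND (1.68 and 1.56) and HLJDD against ND (1.12 and 1.45), and every symbol of HLJDD against HFD is open.

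Cck, the gene of the satiety and gallbladder hormone (chr9:121489824-121495694, minus strand), was the least abundant of the 5 in the HLJDD and HFD groups. It had 5.85, 2.35, 5.58 and 5.94 FPKM in HLJDD replicates 1 to 4, 2.02, 3.46, 7.11 and 7.97 FPKM in HFD replicates 1 to 4, and 2.75, 3.39 and 4.08 FPKM in ND replicates 1 to 3. The groups overlapped, and the lowest HLJDD and HFD libraries were the 2 with the highest mitochondrial shares. Whether that share plays a part was not tested. The difference was 0.35 for HFD against ND (95% interval -0.44 to 1.14, limma adjusted p = 0.476), 0.02 for HLJDD against HFD (-0.71 to 0.75, 0.999) and 0.38 for HLJDD against ND (-0.41 to 1.17, 0.517). These intervals leave room for changes of more than 1 in either comparison with ND. Within HFD, Cck had an SD of 2.85 around a mean of 5.14 FPKM.

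Sct, the secretin gene (chr7:141278329-141279174, minus strand), had 36.2, 47.9, 42.5 and 32.5 FPKM in HLJDD replicates 1 to 4, 56.0, 44.3, 36.4 and 39.3 FPKM in HFD replicates 1 to 4, and 56.3, 55.8 and 42.9 FPKM in ND replicates 1 to 3. The ranges overlapped in all 3 pairs of groups. The difference was -0.24 for HFD against ND (95% interval -0.64 to 0.17, limma adjusted p = 0.354), -0.14 for HLJDD against HFD (-0.51 to 0.23, 0.999) and -0.37 for HLJDD against ND (-0.78 to 0.03, 0.204). After median-ratio scaling the difference was 0.02 for HFD against ND and -0.19 for HLJDD against ND (limma adjusted p = 0.968 and 0.648). Without the 2 libraries rich in mitochondrial transcripts Sct passed as lower in HLJDD against ND, by -0.47 (limma adjusted p = 0.0403). That fit called 2575 genes in this comparison, against 1279 with all 11 libraries.

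Sst, the somatostatin gene (chr16:23889573-23891342, minus strand), had 18.4, 18.4, 23.2 and 14.5 FPKM in HLJDD replicates 1 to 4, 4.75, 26.8, 20.9 and 21.0 FPKM in HFD replicates 1 to 4, and 22.5, 23.8 and 21.7 FPKM in ND replicates 1 to 3. HFD replicate 1, also rich in mitochondrial transcripts, stood far below the other 10 libraries, and the ND libraries were tightly grouped (22.7 ± 1.03 FPKM, SD, n = 3). The difference was -0.51 for HFD against ND (95% interval -1.42 to 0.41, limma adjusted p = 0.379), 0.22 for HLJDD against HFD (-0.62 to 1.06, 0.999) and -0.29 for HLJDD against ND (-1.20 to 0.63, 0.683). Without HFD replicate 1 the HFD against ND difference was 0.0063 and the HLJDD against HFD difference was -0.29.

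The order of the 5 levels, which FPKM allows because it is per length, differed between the groups. By group means it was Gip, Sct, Sst, Ghrl and Cck in HLJDD and HFD, and Sct, Gip, Sst, Cck and Ghrl in ND. Gip exceeded Sct in 4 of 4 HLJDD, 4 of 4 HFD and 1 of 3 ND libraries, the last being ND replicate 3. Sct exceeded Sst in every library. Ghrl exceeded Cck in 4 of 4 HLJDD, 4 of 4 HFD and 1 of 3 ND libraries. Gip exceeded Sst in 4 of 4 HLJDD, 4 of 4 HFD and 2 of 3 ND libraries, the exception being ND replicate 1. In ND the neighbours Sct and Gip, Gip and Sst, and Cck and Ghrl therefore changed places between libraries. Sst exceeded Ghrl in all libraries but HFD replicate 1.

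The summed FPKM of the 5 genes averaged 141.8 ± 19.1 in HLJDD, 178.6 ± 18.5 in HFD and 113.3 ± 8.77 in ND (SD, n = 4, 4 and 3). Without Gip the sums were 72.8 ± 7.33 in HLJDD, 77.9 ± 6.30 in HFD and 80.6 ± 7.25 in ND, with overlapping ranges. Gip made up 48.2% of the sum in HLJDD, 56.3% in HFD and 28.3% in ND on average. A share of this sum does not depend on the library total, and 15 such differences were tested by exact permutation without adjustment.

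The difference in Gip share was 28.0 percentage points for HFD against ND and -8.04 points for HLJDD against HFD, each with no overlap between groups and an exact permutation p of 0.02857. Within HLJDD it was 51.4%, 39.3%, 52.6% and 49.6% in replicates 1 to 4, and within HFD 53.6%, 56.2%, 58.1% and 57.2%. The HLJDD libraries all lay below the HFD libraries, and HLJDD replicate 2, with the highest mitochondrial share, was the lowest. Without that library the difference from HFD was -5.07 points (exact permutation p = 0.05714). Against ND the HLJDD share was 19.9 points higher, with overlap (exact permutation p = 0.08571), since ND replicate 3 reached 40.1%. The Ghrl share was 6.84% in HLJDD, 5.80% in HFD and 2.56% in ND, without overlap between either group and ND (exact permutation p = 0.02857 for both). The Sst share was 13.1% in HLJDD, 9.93% in HFD and 20.1% in ND, again without overlap with ND (exact permutation p = 0.02857 for both). The Sct share was 28.3% in HLJDD, 25.2% in HFD and 46.1% in ND, with overlap (exact permutation p = 0.08571 for each against ND). Shares of 1 sum are tied, so a lower share of Sct or Sst accompanies a higher share of Gip whatever their own levels.

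**Figure D4:**
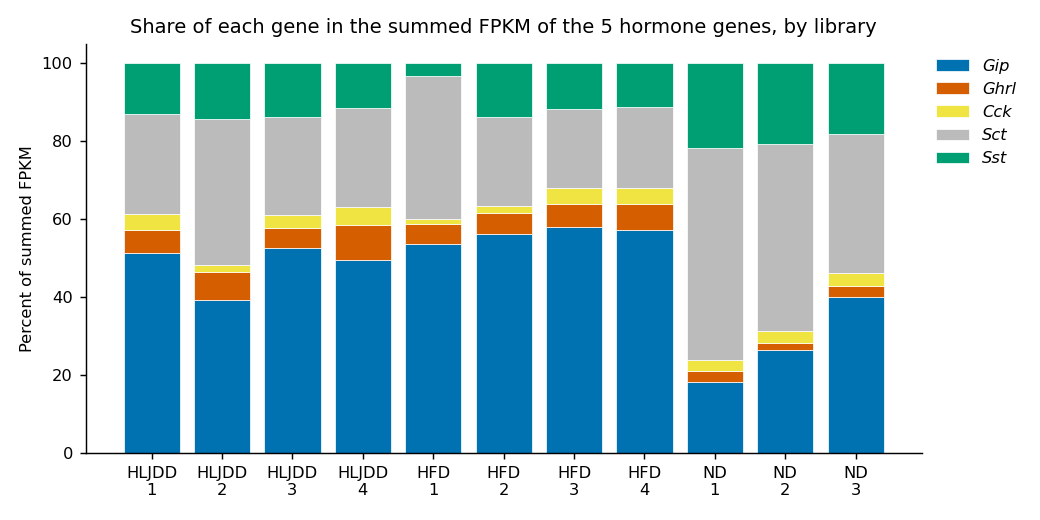
Percent of the summed FPKM of the 5 hormone genes taken by each gene in each library, as stacked bars that add to 100 percent. Gip takes 39.3% to 58.1% in the 8 HLJDD and HFD libraries and 18.2% to 40.1% in the 3 ND libraries.

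A list of enteroendocrine granule genes, most of whose summed level came from Chga and Chgb, gave another yardstick. The summed FPKM of 12 granule genes averaged 75.1 ± 12.9 in HLJDD, 85.6 ± 31.2 in HFD and 78.1 ± 16.9 in ND (SD, n = 4, 4 and 3). Set against this sum on the log2 scale, Ghrl was higher by 1.80 in HFD than in ND and by 1.80 in HLJDD than in ND, without overlap (exact permutation p = 0.02857 for both). Gip was higher by 1.65 in HFD than in ND without overlap (exact permutation p = 0.02857) and by 1.20 in HLJDD than in ND with overlap (p = 0.05714, exact permutation). With only Chga and Chgb as the yardstick the Gip difference for HFD against ND was 1.32 (exact permutation p = 0.05714), and Ghrl kept p = 0.02857 in both comparisons with ND (exact permutation). Between HLJDD and HFD the Gip difference on this yardstick was -0.44 (exact permutation p = 0.1429), so the separation seen in the share was not seen here. Of 9 granule genes tested, in HFD against ND 1 was called higher and 1 lower (median change -0.34), 0 passed in HLJDD against HFD, and 1 fell in HLJDD against ND (median -0.32). Over all genes, 16.6% were called in HFD against ND and 11.9% in HLJDD against ND.

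The granule gene that rose in HFD against ND was Chga, which encodes chromogranin A, at 37.7 ± 9.47 FPKM in HFD and 24.1 ± 3.05 FPKM in ND (limma adjusted p = 0.0457). Its call was lost without HFD replicate 3 (0.104), HFD replicate 4 (0.0898), ND replicate 1 (0.0928), ND replicate 2 (0.128) or ND replicate 3 (0.129), with no filter on low genes (0.0835) and in a fit of the 2 groups alone (0.0661). Scg2, which encodes secretogranin II, fell in both comparisons with ND, at 2.96 ± 1.75 FPKM in HLJDD, 2.67 ± 1.31 FPKM in HFD and 9.22 ± 2.91 FPKM in ND. Without ND replicate 1 the Scg2 p was 0.142 for HFD and 0.200 for HLJDD (limma, adjusted), without ND replicate 2 it was 0.116 and 0.153, and the HLJDD call was kept without HLJDD replicate 3 but lost without each other HLJDD or ND library. The HFD call of Scg2 was also lost without HFD replicate 1 (0.0703) or HFD replicate 3 (0.0508). For HLJDD the values were 0.0651, 0.0690 and 0.0930 without HLJDD replicates 1, 2 and 4, and 0.0503 without ND replicate 3. Both Scg2 calls were also lost with a pseudocount of 0.1 (0.0899 for HLJDD and 0.0671 for HFD) and with no filter (0.121 and 0.0927).

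Of 10 tested genes that mature or degrade the hormones, 3 fell and 0 rose in HFD against ND (median change -0.41) and in HLJDD against ND (median -0.43), against 11.5% and 7.79% of all genes called lower, and 0 passed in HLJDD against HFD. After median-ratio scaling the same comparisons called 2 higher and 3 lower in HFD (the peptidase gene Mme and the butyrylcholinesterase gene Bche higher), and 1 higher (Bche) and 3 lower in HLJDD. The scaled background was 11.6% of all genes higher and 11.4% lower for HFD, and 8.62% and 9.18% for HLJDD. Dpp4, the peptidase that inactivates the Gip product, was at 83.8 ± 35.6 FPKM in HLJDD, 75.1 ± 20.7 FPKM in HFD and 188.1 ± 5.64 FPKM in ND. Pcsk1, the convertase that cleaves several prohormones, was at 1.33 ± 0.332, 1.65 ± 0.623 and 3.4 ± 0.919 FPKM in HLJDD, HFD and ND. Pam, which amidates peptides such as cholecystokinin and secretin, was at 3.48 ± 1.13, 3.19 ± 0.976 and 7.45 ± 1.12 FPKM.

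The limma adjusted p for HFD against ND was 0.0153 for Dpp4, 0.0375 for Pcsk1 and 0.0121 for Pam, and for HLJDD against ND it was 0.0254, 0.0199 and 0.023. All 6 calls were lost without ND replicate 1 (limma adjusted p = 0.0592 to 0.169) and without ND replicate 2 (0.0606 to 0.120). The 3 HLJDD calls were also lost without HLJDD replicate 4 (0.0516 to 0.0733). The Dpp4 call in HLJDD was lost without ND replicate 3 (0.0655), and the Pcsk1 call in HFD without HFD replicate 1 (0.0636). With no filter on low genes the HLJDD calls of all 3 were lost (0.0584 to 0.0711), and so was the Pcsk1 call in HFD (0.0934), which a pseudocount of 0.1 (0.0586) and a fit of the 2 groups alone (0.0533) also ended. Mboat4, the acyltransferase that activates ghrelin, was at 0.014 to 0.118 FPKM over all libraries and was not tested.

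Receptor genes of the 5 hormones were low in this tissue. Of 9 receptor genes in the table, 0 reached the filter of 1 FPKM in 3 libraries, and their summed level was 0.762 to 1.16 FPKM in HLJDD, 0.822 to 1.30 FPKM in HFD and 0.846 to 1.5 FPKM in ND. Sstr1, a somatostatin receptor gene, averaged 0.401 ± 0.144 FPKM in HLJDD, 0.565 ± 0.185 FPKM in HFD and 0.690 ± 0.293 FPKM in ND. Gipr, which encodes the receptor of the Gip product, was at 0.157 FPKM in HLJDD, 0.293 FPKM in HFD and 0.0798 FPKM in ND on average. Ghsr, the ghrelin receptor gene, was listed at 0 in every HLJDD library and reached at most 0.009 FPKM elsewhere.

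Transcription factors of the enteroendocrine lineage were mostly low. Of 24 factors listed, 8 were tested. In HFD against ND 0 rose and 1 fell (median change 0.01), and in HLJDD against ND 1 rose and 1 fell (median 0.27), beside 16.6% and 11.9% of all genes called. The factor that fell in both was Foxa1, a pioneer factor of gut epithelium, at 1.97 ± 0.253 FPKM in HLJDD, 1.68 ± 0.368 FPKM in HFD and 3.75 ± 1.13 FPKM in ND (limma adjusted p = 0.0324 for HLJDD and 0.0106 for HFD). Its 2 calls were lost without ND replicate 1 (0.175 and 0.0673) or ND replicate 2 (0.140 and 0.0607), and the HLJDD call also without HLJDD replicate 1 (0.0627) or HLJDD replicate 4 (0.0987) and with no filter (0.0757). Prdm16, a zinc-finger regulator, rose in HLJDD against ND, at 1.16 ± 0.604 and 0.263 ± 0.0232 FPKM (limma adjusted p = 0.0407), a call lost without HLJDD replicate 1, HLJDD replicate 4 or any ND library (0.0840 to 0.144) and with no filter (0.0883). After median-ratio scaling Prdm16 also rose in HFD against ND (limma adjusted p = 0.0441). Neurod1, the E-box factor known to act on the secretin promoter, did not pass (1.74 ± 0.234 FPKM in HLJDD, 1.77 ± 0.483 FPKM in HFD and 2.93 ± 0.964 FPKM in ND; limma adjusted p = 0.103 and 0.0832 against ND).

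Of 25 nutrient sensors and transporters listed for enteroendocrine cells, 8 were tested, and 2 fell and 0 rose in each comparison with ND (median change -0.18 for HFD and -0.09 for HLJDD), beside 11.5% and 7.79% of all genes called lower. After median-ratio scaling 3 rose and 2 fell in HFD, 3 rose and 3 fell in HLJDD, and the medians turned to 0.07 and 0.08. On scaled values 11.6% of all genes were called higher and 11.4% lower in HFD against ND, and 8.62% and 9.18% in HLJDD against ND. The 3 that rose on that scale in both were Lpar5, a lysophosphatidic acid receptor gene, and the fatty acid handling genes Cd36 and Fabp5. Bulk RNA does not show which cell types carried the transcripts of this list, so its counts do not describe enteroendocrine cells alone. Ffar4, a receptor for long-chain fatty acids, was at 0.495 ± 0.320 FPKM in HLJDD, 0.402 ± 0.173 FPKM in HFD and 1.53 ± 0.210 FPKM in ND (limma adjusted p = 0.012 for HLJDD and 0.00628 for HFD). Trpm5, a cation channel of taste signalling, was at 0.880 ± 0.173, 0.863 ± 0.401 and 2.03 ± 0.233 FPKM in HLJDD, HFD and ND (limma adjusted p = 0.0202 and 0.0133). The Ffar4 call in HLJDD was lost without ND replicate 1 (0.0715). The Trpm5 call was lost without ND replicate 2 (0.102 for HLJDD and 0.0749 for HFD), and for HLJDD also without ND replicate 1 (0.0706), HLJDD replicate 1 (0.0536) or HLJDD replicate 4 (0.0562) and with no filter (0.0510). Trpm5 is also a tuft cell gene.

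Markers of the stretch of gut also differed between ND and both other groups. Of 9 distal small intestine genes tested, 8 fell in HFD against ND and 7 in HLJDD against ND, and none of the 9 rose (median changes -2.53 and -2.31), where 11.5% and 7.79% of all genes were called lower. Of 9 proximal genes, the HFD against ND test called 5 higher and 2 lower, and the HLJDD against ND test 4 higher and 2 lower (median changes 1.57 and 1.52), where 5.06% and 4.1% of all genes were called higher. Slc46a1, which takes up folate in the upper gut, stood at 82.8 ± 56.0 FPKM in HLJDD, 89.2 ± 43.3 FPKM in HFD and 5.35 ± 2.64 FPKM in ND, while Slc40a1, the iron exporter, was at 0.876 ± 0.154, 0.734 ± 0.0719 and 6.54 ± 3.87 FPKM. In HLJDD against HFD none of these 18 genes passed.

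Within ND, Gip was lowest and Fabp6 highest in the same library, ND replicate 1. Gip was highest and Fabp6 lowest in ND replicate 3. Cck had the same order as Gip, at 2.75, 3.39 and 4.08 FPKM in ND replicates 1, 2 and 3. Ghrl did not, at 3.14, 2.01 and 3.5 FPKM, with its lowest value in ND replicate 2. Sct had the opposite order to Gip, at 56.3, 55.8 and 42.9 FPKM. Sst was at 22.5, 23.8 and 21.7 FPKM, highest in ND replicate 2. Slc10a2, the ileal bile acid importer, was at 256, 141 and 7.70 FPKM in ND replicates 1, 2 and 3 and at most 0.55 FPKM in any HLJDD or HFD library. Gata4, a transcription factor of the duodenum and jejunum, was at 26.4 to 36.6 FPKM in HLJDD, 25.9 to 35.7 FPKM in HFD and 9.75, 15.5 and 24.7 FPKM in ND. With the mean of the 9 distal genes as a covariate, the Gip difference was 1.39 for HFD against ND (limma adjusted p = 0.593) and 0.83 for HLJDD against ND (0.693), and the Ghrl difference was 1.00 (0.514) and 0.88 (0.516). The SE of the HFD against ND difference was 0.85 for Gip with the covariate and 0.27 without it, and 0.51 and 0.18 for Ghrl. Groups made up 91.05% of the variance of that mean, so the group and the stretch of gut cannot be told apart for either gene.

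**Figure D5:**
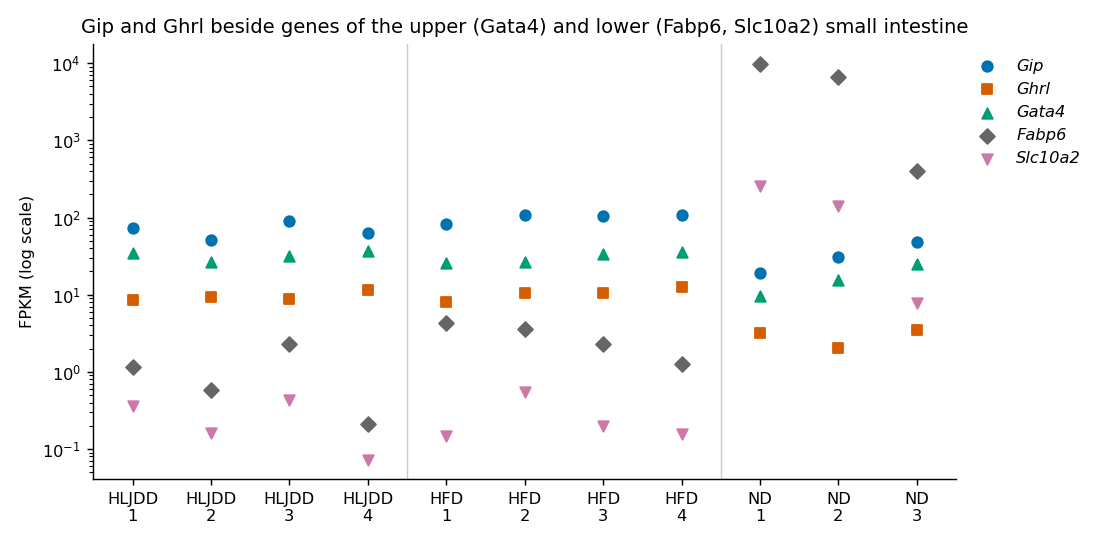
Gip, Ghrl, the upper gut gene Gata4 and the ileal genes Fabp6 and Slc10a2 in each library, in FPKM on a log axis. Fabp6 lies between 397 and 9821 FPKM in the 3 ND libraries and at or below 4.31 FPKM in the 8 HLJDD and HFD libraries, while Gip and Ghrl are lowest in ND.

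Ghrelin and somatostatin are also made in the stomach, and somatostatin in pancreatic islets and neurons, so markers of these were examined. The 10 stomach genes in the table summed to 9.21 to 24.6 FPKM in HLJDD, 6.44 to 25.1 FPKM in HFD and 0.345 to 1.58 FPKM in ND. Nearly all of this came from Cym, a milk-clotting protease gene, at 10.6 ± 4.16, 12.9 ± 6.35 and 0.452 ± 0.618 FPKM in HLJDD, HFD and ND (limma adjusted p = 0.000931 and 0.000527 against ND, kept without each library), and from Gkn3. Gkn3 did not pass (3.98 ± 2.56, 4.09 ± 3.61 and 0.266 ± 0.119 FPKM, limma adjusted p = 0.0531 and 0.0571), but rose after median-ratio scaling (0.0394 for HLJDD and 0.0395 for HFD). The defining genes of stomach lining, Gkn1, Tff2, Muc5ac, Muc6 and Cldn18, were at or below 0.052 FPKM in every library, and Atp4a of acid-secreting cells was at or below 0.130 FPKM. Pgc of chief cells was at 0 to 0.665 FPKM in HLJDD and 0.0454 to 0.717 FPKM in HFD, and was listed at 0 in the 3 ND libraries. The part of stomach tissue in the Ghrl difference was not tested.

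The 5 islet genes in the table summed to 0.666 to 1.21 FPKM in HLJDD, 0.537 to 1.65 FPKM in HFD and 1.11 to 1.16 FPKM in ND, with none tested. Of 14 pancreatic acinar genes in the table, 2 were tested, and Clps, the colipase gene, rose to 6.66 ± 0.3 FPKM in HLJDD and 11.4 ± 3.83 FPKM in HFD, against 2.05 ± 0.250 FPKM in ND (limma adjusted p = 0.00147 and 0.000131). The other, the ribonuclease gene Rnase1, was at 8.42 ± 1.95 FPKM in HLJDD, 9.44 ± 0.391 FPKM in HFD and 8.14 ± 0.837 FPKM in ND and did not pass as deposited (0.934 and 0.369, limma adjusted), but rose in HFD against ND after median-ratio scaling (limma adjusted p = 0.0400). Enteric neuron genes summed to 15.6 to 40.2 FPKM in HLJDD, 11.2 to 51.8 FPKM in HFD and 42.5 to 64.0 FPKM in ND, and 0 of 10 passed in any comparison, with medians of -0.52 for HFD and -0.62 for HLJDD against ND. The part of neurons in the level of Sst, Cck or the granule genes was not tested.

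For each hormone gene the 3 genes with the nearest profile were found by the mean absolute difference, over the 11 libraries, of log2(FPKM + 1) values centred on each gene's mean. Nearest to Gip were Plekhf1 (0.174), Slc25a45 (0.213) and Zg16 (0.225), against a mean absolute deviation of Gip itself of 0.61. Zg16, a goblet cell lectin gene, was at 2267 ± 258.9 FPKM in HLJDD, 2901 ± 214.9 FPKM in HFD and 910.5 ± 315.5 FPKM in ND. Nearest to Ghrl were Gata6os (0.171), a transcript named for its position opposite Gata6, the acyl-CoA synthetase gene Acsl3 (0.212) and Clca4a (0.213). Near to Cck were Dhrs7 (0.121) and Mertk (0.135), nearest to Sct were Acvrl1, Trim12a and Emcn (0.105 to 0.106), and nearest to Sst were Kif22, Nop58 and Nusap1 (0.108 to 0.153). These neighbours are ordered by likeness only.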

How the data were processed

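RNA of mouse small intestine was sequenced in 11 libraries, grouped by title. Per the labels' protocols, RNA came from a TRIzol extraction and libraries from a VAHTS Universal V6 kit. The submitters' processing notes name fastp, HISAT2, HTSeq and R 3.2.0 with mm10. Which annotation, strand setting and other versions they used is not given in the sources used here. FPKM values were deposited by the authors, 1 per gene symbol and library. The 11 single files and the series table held the same values, with 0 differences.

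Whole reads were recovered from the FPKM steps for 24293 of 24294 symbols (within 0.005 reads), which gave the library totals. The 10764 genes that reached 1 FPKM in 3 or more libraries were tested on log2(FPKM + 1), a scale that understates changes of low genes. The test was two-sided limma 3.58.1 (R 4.3.3) with a trended variance, fitted once to all 11 libraries. P-values were adjusted by Benjamini-Hochberg over these genes, with a threshold of 0.05. Exact two-sided permutation tests of group means (Python 3.11.15) took 15 tests each for levels, shares and granule ratios. Poisson intervals used scipy 1.17.1. The fit was tested on simulated data. No 2 libraries of a group agreed within sampling noise.

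The hormone genes and 12 gene lists were chosen with earlier results of these data known. Named genes are the 5 hormone genes, the 3 nearest profiles of each (1 for Cck is not reported here), up to 3 members of each list with the smallest adjusted p, and Fabp6, Slc10a2 and Gata4. Others named as called, or to describe a list's level, were chosen after their values were seen. Alternatives were a pseudocount of 0.1, no filter, median-ratio scaling, equal sums without mitochondrial transcripts, a fit of 2 groups, a replicate block, limma-voom on the recovered reads, the mean of the distal genes as a covariate, and leaving out libraries. Gene positions and start regions come from RefSeq tables of GRCm38.p6, in which all 5 genes matched by symbol.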

Additional observations from a re-analysis of the deposited data

Results flagged for a closer look

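In 30 sets of 4 libraries (each hormone gene as FPKM, share and granule ratio in HLJDD and HFD), the highest or lowest library was compared with the others by Dixon's criterion, which by chance flags about 1 group in 20. It singled out 4 values. Cck in HLJDD replicate 2 was 2.35 FPKM, below 5.58 to 5.94 FPKM in the other 3 HLJDD libraries. Per summed granule FPKM, Cck in that library was -4.57 on the log2 scale, also the lowest of its group. The Sct share of the 5 hormone genes was 37.3% in HLJDD replicate 2, against 25.2% to 25.5% in the other 3. In HFD replicate 1 it was 36.7%, against 20.3% to 22.8% in the other 3 HFD libraries. These are the 2 libraries with the highest mitochondrial shares of reads, 40.7% and 32.4%, and the part of that share in the 4 values was not tested.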

How the results depend on the processing

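With the replicate number as a block, the count of genes called was 1080 for HFD against ND (1786 without) and 724 for HLJDD against ND (1279 without), and no call of a hormone gene changed. The block ended 8 of the 35 calls of named list genes, those of Pcsk1, Scg2 and Chga for HFD against ND (limma adjusted p = 0.0573 to 0.105) and of Pcsk1, Pam, Scg2, Foxa1 and Prdm16 for HLJDD against ND (0.0563 to 0.107). Deviations from the group means correlated at -0.19, 0.16, 0.14 and 0.37 between same-numbered HLJDD and HFD libraries, replicates 1 to 4. For same-numbered pairs with an ND library the values ran from -0.22 to 0.044. Deviations within so small a group are tied to each other, so these values cannot decide whether the numbers pair libraries. Equal sums without mitochondrial transcripts gave 3413 and 2110, and leaving out the 2 libraries rich in them 3352 and 2575, with 1 gene for HLJDD against HFD (0 otherwise). Limma-voom gave 1989 for HLJDD against ND, and the distal score gave 0 in both comparisons with ND. Without each library in turn the counts ran from 664 to 1739 (HFD against ND, lowest without ND replicate 1), 0 to 1 (HLJDD against HFD) and 470 to 1562 (HLJDD against ND).

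The HFD against ND calls of Gip and of Ghrl each kept direction and call under 8 of 9 alternatives and without each of the 7 libraries, the exception being the distal score. With that score the changes in HFD against ND were 1.39 for Gip, 1.00 for Ghrl, 0.13 for Sct and 0.97 for Sst, and in HLJDD against ND 0.83 for Gip, 0.88 for Ghrl and 1.19 for Sst. Scaling turned Sct in HFD against ND to 0.018 (2.45 scaled FPKM in the permutation test). Gip in HLJDD against ND was 1.12 with no filter (adjusted p = 0.0574) and 0.79 to 1.45 without each library. Sct in HLJDD against ND was -0.47 without the 2 libraries. Cck in HLJDD against HFD was -0.035 (scaling), -0.033 (limma-voom), -0.018 (without the 2 libraries) and -0.27 to 0.28 without each library. Sst without the 2 libraries was 0.0063 in HFD against ND and -0.29 in HLJDD against HFD, and -0.75 to 0.0063 and -0.29 to 0.47 without each library. The causes of these changes were not tested.

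Of the 35 calls of named list genes, 11 were lost with no filter, 3 with a pseudocount of 0.1 and 2 in the fit of 2 groups. With the distal score, 6 calls belong to genes of the score itself. Of the other 29, 0 were kept, 14 held their direction and 15 changed sign, with larger SE. The SE of the calls that changed sign ran from 0.37 (Foxa1) to 1.31 (Fabp1). Groups made up 91.05% of the variance of the score, so these fits cannot decide the direction of a group difference. Chga in HFD against ND was 0.85 (SE 0.56, against 0.60 and 0.18 without the score) and Clps 1.46 (SE 0.56, against 1.98 and 0.19). The changes of sign in HFD against ND were Pyy (1.84), Pam (0.59), Dpp4 (0.42), Pcsk1 (0.51), Scg2 (1.39), Foxa1 (0.36) and Fabp1 (-0.48), and in HLJDD against ND Pyy (1.53), Nts (1.71), Pcsk1 (0.35), Pam (0.68), Dpp4 (0.53), Scg2 (1.46), Foxa1 (0.51) and Fabp1 (-0.70). With Chga and Chgb only, Gip per granule in HFD against ND was 1.32 (exact permutation p = 0.05714), and Ghrl and Sct per granule in HLJDD against HFD were 0.018 and 0.0012, and without each library -0.13 to 0.15 and -0.25 to 0.37. The difference in Cck share for HFD against ND was -0.63 to 0.33 points without each library. Without 1 library the smallest exact p of share and granule tests against ND rises above the threshold, so their lost calls say nothing about stability. For HLJDD against HFD it does not, and the Gip share difference was -9.51 to -5.07 points, with an exact permutation p of 0.05714 without HLJDD replicate 2 or any HFD library.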

Other observations

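Other enteroendocrine hormone genes, among them Pyy, Nts and Gcg of the lower gut, were read from the same libraries. The tested list also holds Tac1, Tph1, Cartpt and Nucb2, so its counts and medians do not describe the lower gut alone. Of 7 other enteroendocrine hormone genes tested, 0 rose and 1 fell in HFD against ND (median change -0.51), 0 passed in HLJDD against HFD, and 0 rose and 2 fell in HLJDD against ND (median -0.71), beside 11.5% and 7.79% of all genes called lower in the comparisons with ND. Pyy, which encodes peptide YY of L cells, was at 4.36 ± 4.30 FPKM in HLJDD, 4.73 ± 2.86 FPKM in HFD and 33.8 ± 11.2 FPKM in ND (SD, n = 4, 4 and 3), and fell in both comparisons with ND (limma adjusted p = 0.00511 and 0.0076), and both calls were kept without each library in turn. Nts, the neurotensin gene of ileal endocrine cells, fell in HLJDD against ND, at 44.9 ± 30.5 and 153.4 ± 37.0 FPKM (limma adjusted p = 0.0204), a call lost without ND replicate 1 (0.102) or ND replicate 2 (0.0795) and with no filter on low genes (0.0645). In HFD it was at 64.9 ± 28.2 FPKM and did not pass against ND (0.0817). Gcg, which encodes the glucagon-like peptides, was at 5.27 ± 1.54, 4.91 ± 3.68 and 11.1 ± 2.89 FPKM in HLJDD, HFD and ND and did not pass against ND (limma adjusted p = 0.182 for HLJDD and 0.0711 for HFD). The distal marker genes fell in the same comparisons, and their part in these values cannot be told apart from that of the group.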
